A study of Homo sapiens with 2 samples.

Results

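The 10 genes described here encode beta-catenin and the nuclear proteins through which it acts on target genes. They are CTNNB1 (beta-catenin), the DNA-binding factors TCF7L1 and TCF7L2, the coactivators BCL9, BCL9L and PYGO2, the acetyltransferases CREBBP and EP300, and the corepressors TLE1 and TLE3. Every probe set whose platform annotation gave exactly the symbol of a member was taken, without regard to its signal, which gave 31 probe sets for 10 of the 19775 genes that had a probe set with a single symbol. RNA came from HCT116, an established human colorectal carcinoma line that carries an activating CTNNB1 mutation. One culture received a control siRNA, and the other received siRNAs against JMJD1A and JMJD1B together, the older names of the H3K9 demethylases KDM3A and KDM3B, by which the second array is called here. Both were transfected by lipofection, grown in serum-containing DMEM and harvested 2 days later. Each condition was represented by 1 single-channel oligonucleotide array, so no value below carries a replicate error or a test, and every difference is between these samples. Which sequences the siRNAs target was not analysed here, and off-target effects were not tested.

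Beta-catenin that escapes destruction in the cytoplasm enters the nucleus and binds TCF factors, which sit on DNA at Wnt target genes. Without beta-catenin, TCF factors hold TLE (Groucho) corepressors. Once bound, beta-catenin recruits BCL9 or BCL9L at its amino-terminal part, these bring in Pygopus proteins such as PYGO2, and its carboxy-terminal part draws in histone acetyltransferases such as CREBBP and EP300. In colorectal cancer cells this pathway is constitutively active, and TCF7L2 is the best known TCF factor of the intestinal epithelium.

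The values are MAS5 signals, a linear measure of probe set brightness, and the log2 ratio is the KDM3A/KDM3B siRNA array minus the control array. A probe set counted as measured if its geometric mean signal over both arrays reached 50.4, the midpoint (median) of the whole array without its control features. Signals near that filter are close to the background of these arrays. The 27 probe sets for the bacterial dap, lys, phe, thr and trp transcripts read at most 46.9 on the control array and at most 53.1 on the KDM3A/KDM3B siRNA array, and 16 of them differed at least 2-fold between arrays. The 2 brightest measured probe sets of a gene served as the measure of technical scatter. Over 6192 genes with such a pair, single probe sets scattered around each other with an SD of 0.54 in their log2 ratio, which was 0.66 where the dimmer probe set lay under a signal of 200, 0.50 between 200 and 1000, and 0.38 above 1000. This covers probe behaviour and not the spread between samples. The deposited scaling gave both arrays the same trimmed mean, but the 18 hybridization controls were all brighter on the KDM3A/KDM3B siRNA array, with a median log2 ratio of 0.61. Setting the arrays level on these controls would subtract that amount from each log2 ratio, and the counts and calls it changes are given with the results. KDM3B read 3031 and 496 on the control and KDM3A/KDM3B siRNA arrays, whereas KDM3A read 3884 and 3323, a log2 ratio of -0.22 that was smaller than the probe set scatter. Of the markers of colorectal epithelium 8 of 8 were measured, of which KRT19 (2.39-fold) and CDH1 (2.16-fold) were at least 2-fold higher, KRT20 was 1.99-fold lower and EPCAM read 13794 and 19809. CDX2, at 108 and 78.2, and VIL1, at 86.2 and 104, were dim. With the arrays level on the hybridization controls 0 of the 8 were at least 2-fold higher, KRT19 standing at 0.65 and CDH1 at 0.50. On that scale 2 were at least 2-fold lower, KRT20 at -1.60 and CDX2 at -1.07. Of the markers of other cell types, 2 of 6 fibroblast, 2 of 5 leukocyte and 1 of 4 endothelial genes were measured, none of them differing 2-fold, and PTPRC, VWF and CDH5 were not. The brightest of them was the fibroblast gene COL1A1, which read 324 and 631, 1.95-fold higher.

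Several cofactors were lower on the KDM3A/KDM3B siRNA array, while beta-catenin itself and TCF7L2 differed by less than 2-fold in every measured probe set on the deposited scale. BCL9, EP300, TLE3 and CREBBP were at least 2-fold lower by their brightest probe sets, TCF7L1 was at least 2-fold higher, and the other 5 genes differed by less. This made 4 of 10 genes at least 2-fold lower, against 8.53% of all 12561 measured genes, and 1 of 10 at least 2-fold higher, against 8.91%. The members were chosen with earlier results of these data known, which limits what these shares can show. BCL9 passed the filter only through the control array, and requiring both arrays to meet the filter left it out, with 3 genes lower. By the mean of each gene's measured probe sets only BCL9 and CREBBP were at least 2-fold lower (7.84% of all genes), and TCF7L1 was again the 1 gene that was higher (7.79%). Of the 31 probe sets 25 were measured, and of these 6 (24.0%) were at least 2-fold lower, 1 (4.0%) at least 2-fold higher and 18 under 2-fold. Over all 23360 measured probe sets the shares were 10.4% lower and 8.88% higher. Probe sets of one gene share a transcript, so the 25 are not independent. The median log2 ratio of the 25 was -0.26, beside -0.0048 over all measured probe sets.

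**Figure D1:**
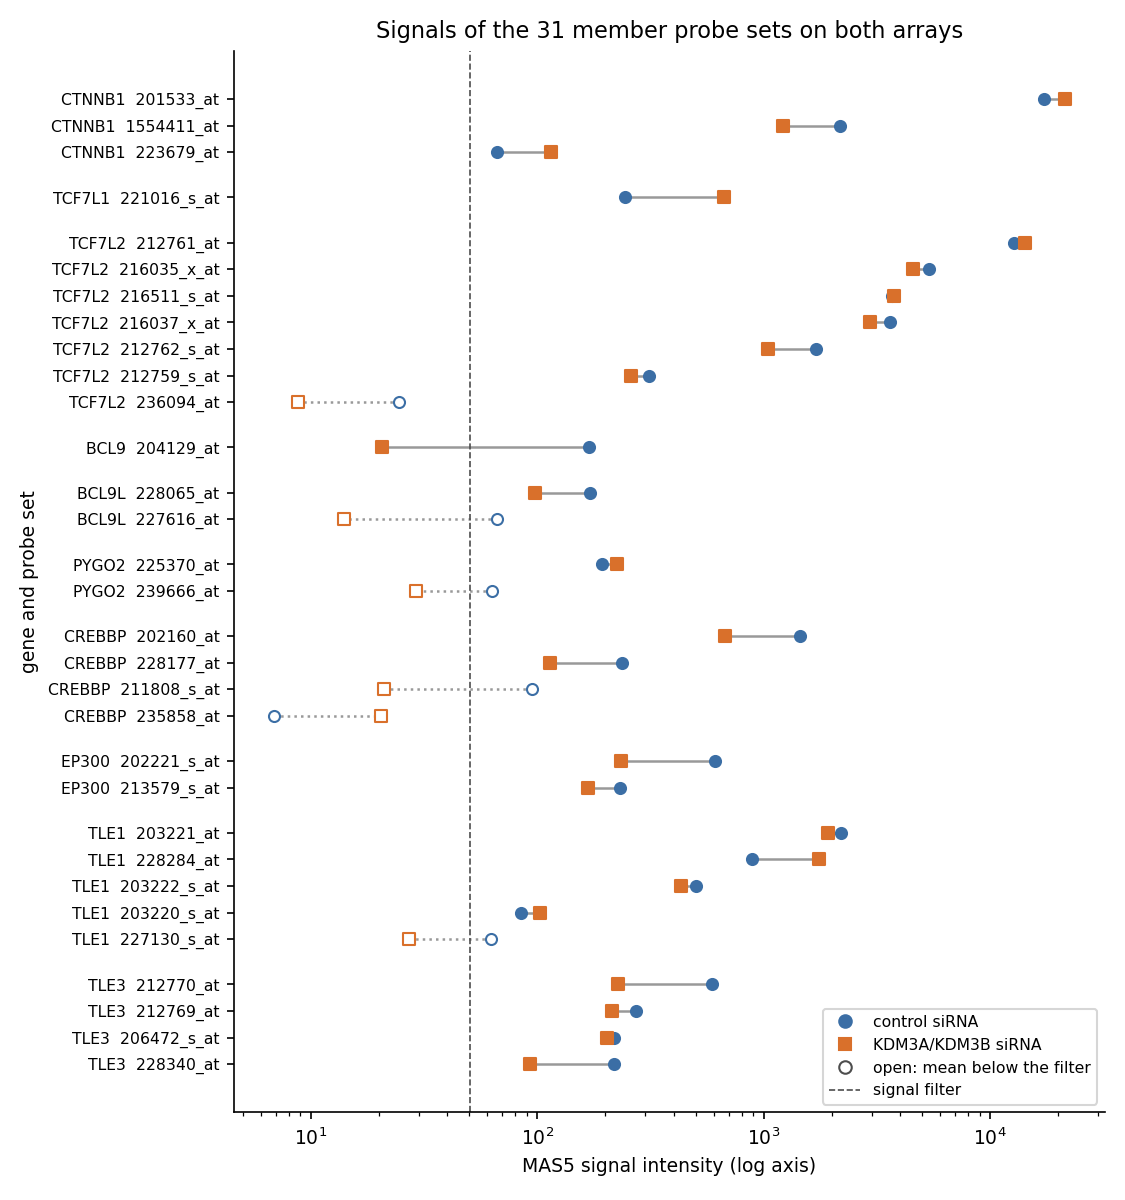
Signal of each of the 31 probe sets on the control siRNA array (circles) and the KDM3A/KDM3B siRNA array (squares), on a logarithmic axis, with 1 array per condition and no error bars. Open symbols mark the 6 probe sets whose mean lay below the filter of 50.4 (dashed line). BCL9 crosses the filter from 169 to 20.7, and the 4 TLE3 probe sets all lie lower on the KDM3A/KDM3B siRNA array.

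The split of calls between directions moved with the scaling. After loess removal of the trend with signal, or after quantile normalization, 2 probe sets were at least 2-fold higher and 5 lower. With the arrays level on the hybridization controls none was at least 2-fold higher and 10 were lower, when 2.29% of all measured probe sets were higher and 30.4% were lower. Counted by gene on that scale, none of the 10 was higher and 5 were lower, when 2.15% of all measured genes were higher and 27.7% were lower. The 6 lower calls on the deposited scale all lay under a mean signal of 1000, although CREBBP 202160_at, at 983, was close to that edge. Of the 9 member probe sets above that signal none was called in either direction, and the share over all probe sets in that range was 7.28% higher and 8.06% lower. Of the 7 member probe sets with a mean signal under 200, 3 were at least 2-fold lower. The share over all measured probe sets in that range was 10.71% higher and 11.02% lower. Of the 9 between 200 and 1000, 3 were lower and 1 was higher, beside 11.94% lower and 8.55% higher over all.

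**Figure D2:**
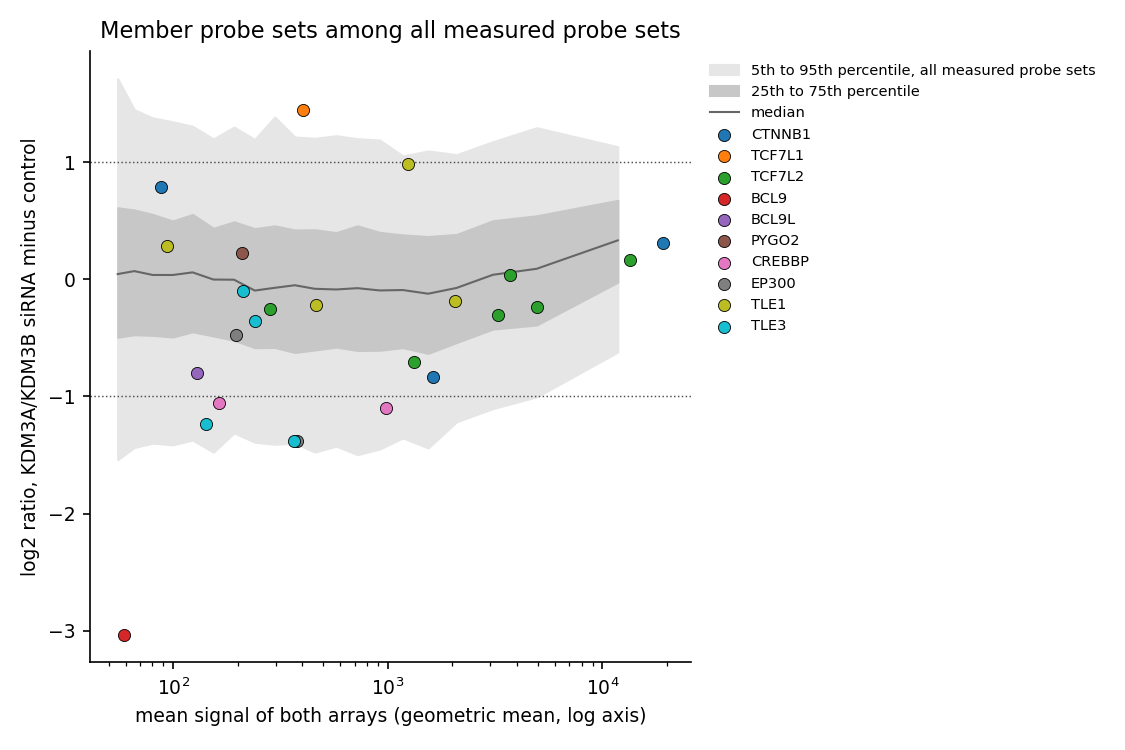
Log2 ratio of the 25 measured member probe sets (coloured points) against the geometric mean signal of both arrays, on a logarithmic axis. Grey bands give the spread of all 23360 measured probe sets in 20 bins of signal, and dotted lines mark 2-fold. BCL9 at -3.03 lies far below the bands, but its signal of 20.7 on the KDM3A/KDM3B siRNA array is under the filter. Set against the filter its log2 ratio is -1.75 or lower. The probe sets above a mean signal of 1000 all lie within 2-fold.

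The upstream sequences of the genes that differed at least 2-fold are shown because BCL9, CREBBP, EP300 and TLE3 were lower together while TCF7L1 was higher. Each is the 250 bases before the outermost annotated start of the gene, from RefSeq on GRCh38.p14, read 5′ to 3′ on the gene's strand. Windows were matched by symbol for 9 of the 10 members, the exception being BCL9L. Capitals mark the core letters recognised by hypoxia-inducible factors, ACGTG or GCGTG on either strand.
BCL9, chr1:147541251-147541500, plus strand: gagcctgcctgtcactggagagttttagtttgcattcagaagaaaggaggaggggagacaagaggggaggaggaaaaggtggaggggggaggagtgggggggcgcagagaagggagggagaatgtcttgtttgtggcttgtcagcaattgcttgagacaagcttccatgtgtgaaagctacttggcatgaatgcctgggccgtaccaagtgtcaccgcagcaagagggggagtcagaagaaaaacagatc
CREBBP, chr16:3880714-3880963, minus strand: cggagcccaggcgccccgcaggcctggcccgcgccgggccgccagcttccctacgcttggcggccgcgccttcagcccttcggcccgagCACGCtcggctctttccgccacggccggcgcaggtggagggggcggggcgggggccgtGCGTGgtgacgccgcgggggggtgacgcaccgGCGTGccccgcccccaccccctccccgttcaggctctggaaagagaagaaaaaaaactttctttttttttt
EP300, chr22:41092342-41092591, plus strand: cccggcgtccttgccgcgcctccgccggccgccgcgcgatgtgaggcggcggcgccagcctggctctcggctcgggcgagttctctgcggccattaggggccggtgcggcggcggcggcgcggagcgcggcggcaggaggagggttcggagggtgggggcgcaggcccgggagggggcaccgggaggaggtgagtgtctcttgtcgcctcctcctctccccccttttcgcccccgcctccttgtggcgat
TLE3, chr15:70097918-70098167, minus strand: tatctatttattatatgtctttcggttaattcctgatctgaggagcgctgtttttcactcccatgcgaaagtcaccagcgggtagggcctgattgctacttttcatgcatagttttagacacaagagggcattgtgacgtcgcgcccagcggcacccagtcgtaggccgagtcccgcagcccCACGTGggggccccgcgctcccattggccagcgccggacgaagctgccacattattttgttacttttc
TCF7L1, chr2:85133142-85133391, plus strand: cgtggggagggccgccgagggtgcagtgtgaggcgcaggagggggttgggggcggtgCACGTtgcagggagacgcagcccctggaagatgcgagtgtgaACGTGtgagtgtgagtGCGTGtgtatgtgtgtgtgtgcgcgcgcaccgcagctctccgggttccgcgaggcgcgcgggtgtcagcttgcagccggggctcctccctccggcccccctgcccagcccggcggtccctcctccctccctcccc
The hypoxia-inducible factor core was found in 6 of the 9 member windows and in 43.2% of all 35116 windows of this length. It occurred at 3 places in TCF7L1 and at 3 in CREBBP. In TLE3 the 2 matches overlap, since CACGTG reads the same on both strands. The windows of BCL9 and EP300, shown wholly in lower case, did not hold it, which says only that these letters are not in these windows. The TCF letters CTTTGAT or CTTTGAA, on either strand, were in none of the 9 member windows and in 5.94% of all windows. With no TCF match, no letters were shared between the motifs in these windows. The windows also differ in base composition. BCL9 holds 3 CpG dinucleotides and 53.6% G+C, CREBBP 31 CpG, EP300 35, TLE3 17 and TCF7L1 24, where the median window holds 11. Each form of the hypoxia-inducible factor core contains a CpG, and the share of 43.2% was not matched for CpG content. A match is a description of the letters, and binding was not measured.

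CTNNB1 encodes beta-catenin, the coactivator that also links cadherins to the actin cytoskeleton. Its brightest probe set (201533_at) read 17306 on the control array and 21413 on the KDM3A/KDM3B siRNA array, a log2 ratio of 0.31 that turned to -0.09 after loess or quantile normalization and to -0.30 on the hybridization controls. The second (1554411_at) read 2169.9 and 1216, a log2 ratio of -0.84, and the dimmest (223679_at) read 66.5 and 115, a ratio of 0.79. The CTNNB1 probe sets therefore went both ways, over a range of 1.62 on the log2 scale. The SD of 0.76 for the difference of 2 probe sets of one gene is not a measure for a range over 3. The upper end is the dimmest probe set, in the range of signal where the single probe set SD was 0.66. The mean of the 3 CTNNB1 probe sets was 0.09. No CTNNB1 probe set reached 2-fold on the deposited scale, but 1554411_at stood at -1.45 on the hybridization controls. The positions of the probes on the transcripts were not used here, so it was not tested whether these probe sets read different transcript forms.

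The TCF factors diverged. TCF7L2 had 6 measured probe sets and none reached 2-fold on the deposited scale. The brightest (212761_at) read 12696 and 14229, a log2 ratio of 0.16, which turned to -0.15 after loess, -0.12 after quantile normalization and -0.45 on the hybridization controls. The next, 216511_s_at, 216035_x_at and 216037_x_at, had log2 ratios of 0.03, -0.24 and -0.30, and 212759_s_at one of -0.26. These values lie within the single probe set SD of 0.54. The 1 measured TCF7L2 probe set beyond it was 212762_s_at, which read 1698 and 1039.8, a ratio of -0.71 that became -1.32 on the hybridization controls. The last (236094_at) lay below the filter on both arrays, at 24.4 and 8.81. The mean of the 6 was -0.22.

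TCF7L1, a family member known for acting mostly as a repressor in stem cells, was represented by 1 probe set (221016_s_at). It read 244 on the control array and 664 on the KDM3A/KDM3B siRNA array, both well above the filter, a 2.73-fold higher signal and a log2 ratio of 1.45. This was higher than 96.7% of all measured probe sets. The log2 ratio was 1.52 after loess and 1.53 after quantile normalization, and 0.84 on the hybridization controls, where it no longer reached 2-fold. No second probe set could be set against it. The log2 ratio of TCF7L1 exceeded that of TCF7L2 by 1.28 by brightest probe sets and by 1.67 by the means, beside an SD of 0.76 for the difference of 2 probe sets of one gene.

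BCL9 had the lowest log2 ratio of the members. BCL9 and BCL9L are paralogous adaptors that bind beta-catenin on one side and a Pygopus protein on the other. The only BCL9 probe set (204129_at) read 169 on the control array and 20.7 on the KDM3A/KDM3B siRNA array. The signals differ 8.19-fold, a log2 ratio of -3.03, and 0.15% of all measured probe sets had a lower ratio. The second signal lies within the range of the bacterial probe sets above, so the size of the difference and its rank are uncertain. Set against the filter BCL9 was at least 3.36-fold lower. The mean signal of 59.2 made it the dimmest measured member probe set. With a pseudocount of 32 added to both signals the log2 ratio was -1.93. Its log2 ratio lay between -3.64 and -3.03 under the 5 scalings.

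BCL9L was lower too, by less in its measured probe set. Its measured probe set (228065_at) read 170.2 and 98.0, a log2 ratio of -0.80, or 1.74-fold, which became -1.41 on the hybridization controls. This exceeds the single probe set SD of 0.66 for dim probe sets by little. A second BCL9L probe set (227616_at) read 66.7 and 14.0, with its mean below the filter, and was at least 1.32-fold lower against the filter. With BCL9 held at the filter, the log2 ratio of BCL9L exceeded that of BCL9 by at least 0.95. The SD for the difference of 2 probe sets of one gene was 0.76 over all signals, and dim probe sets such as these scatter more. At that bound these arrays do not clearly tell the sizes of both differences apart. PYGO2, whose PHD finger reads methylated lysine 4 of histone H3, differed by less than the probe set SD. Its measured probe set (225370_at) read 193 and 226, a log2 ratio of 0.22 that turned to -0.39 on the hybridization controls, and a dim one (239666_at) read 63.4 and 29.1.

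Both acetyltransferase genes were lower in each of their measured probe sets. CREBBP and EP300 are closely related enzymes that acetylate histones, including lysine 27 of histone H3 at enhancers. CREBBP read 1438 on the control array and 671 on the KDM3A/KDM3B siRNA array by its brightest probe set (202160_at), a log2 ratio of -1.10, and 236 and 114 by the second (228177_at), a ratio of -1.05. The 2 measured CREBBP probe sets thus differed by 0.05 only. After loess the first stood at -0.998 and after quantile normalization at -0.99, just short of 2-fold, while the second stayed at least 2-fold lower, at -1.05 and -1.02. Of the CREBBP probe sets below the filter, 211808_s_at read 94.6 and 21.0, at least 1.88-fold lower against the filter, and 235858_at read 6.85 and 20.5, under the filter on both arrays.

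EP300 read 611 and 234 by its brightest probe set (202221_s_at), 2.61-fold lower with a log2 ratio of -1.38. The second (213579_s_at) read 232 and 167, a ratio of -0.47, which is within the single probe set SD. EP300 was therefore lower in both, but at least 2-fold in 1 of 2, and in 2 of 2 on the hybridization controls, where the second stood at -1.08. Their mean was -0.93. By brightest probe sets the log2 ratios of CREBBP and EP300 differed by 0.28, less than the SD of 0.76 between 2 probe sets of a gene, so these arrays do not tell the sizes of both differences apart. On the hybridization controls EP300 stood at -1.99 and CREBBP at -1.71.

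TLE1 and TLE3 belong to the Groucho family, which TCF factors recruit to silence target genes. All 4 TLE3 probe sets were measured, and all were lower on the KDM3A/KDM3B siRNA array. The brightest (212770_at) read 589 and 227, a log2 ratio of -1.38, and 228340_at read 219 and 93.0, a ratio of -1.23. The other 2 TLE3 probe sets differed little between arrays, 212769_at reading 272 and 213 (-0.35) and 206472_s_at reading 219 and 204 (-0.10). The TLE3 probe sets thus formed a pair beyond 2-fold and a pair inside the single probe set SD, with a mean of -0.77.

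TLE1 had 4 measured probe sets, and these went both ways. The brightest (203221_at) read 2187 and 1922, a log2 ratio of -0.19. A second (228284_at) read 888 and 1757, a log2 ratio of 0.98 that stood just under 2-fold and passed it after loess (1.09) and quantile normalization (1.10). The remaining TLE1 probe sets were 203222_s_at at -0.22 and 203220_s_at at 0.28. With the arrays level on the hybridization controls only 228284_at stayed above 0, at 0.37. The last (227130_s_at), below the filter, read 62.5 and 27.2. The TLE1 mean was 0.22, opposite in sign to its brightest probe set. By brightest probe sets the log2 ratio of TLE1 exceeded that of TLE3 by 1.19, and by means by 0.98, beside the SD of 0.76 for 2 probe sets of a gene, and the 2 TLE3 probe sets nearest 0 lay close to the TLE1 probe sets that were below 0.

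The 6 member probe sets below the filter lay under 50.4 on the KDM3A/KDM3B siRNA array, and 4 of them lay above it on the control array. Of the 6, 5 were at least 2-fold lower and 1 was higher, but over all 17731 probe sets below the filter 21.1% were lower and 28.3% higher, so such ratios are common in that range. The member probe sets nearest the filter were BCL9 at a mean of 59.2 and CTNNB1 223679_at at 87.3 inside it, and CREBBP 211808_s_at at 44.6, PYGO2 239666_at at 43.0 and TLE1 227130_s_at at 41.2 outside it.

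**Figure D3:**
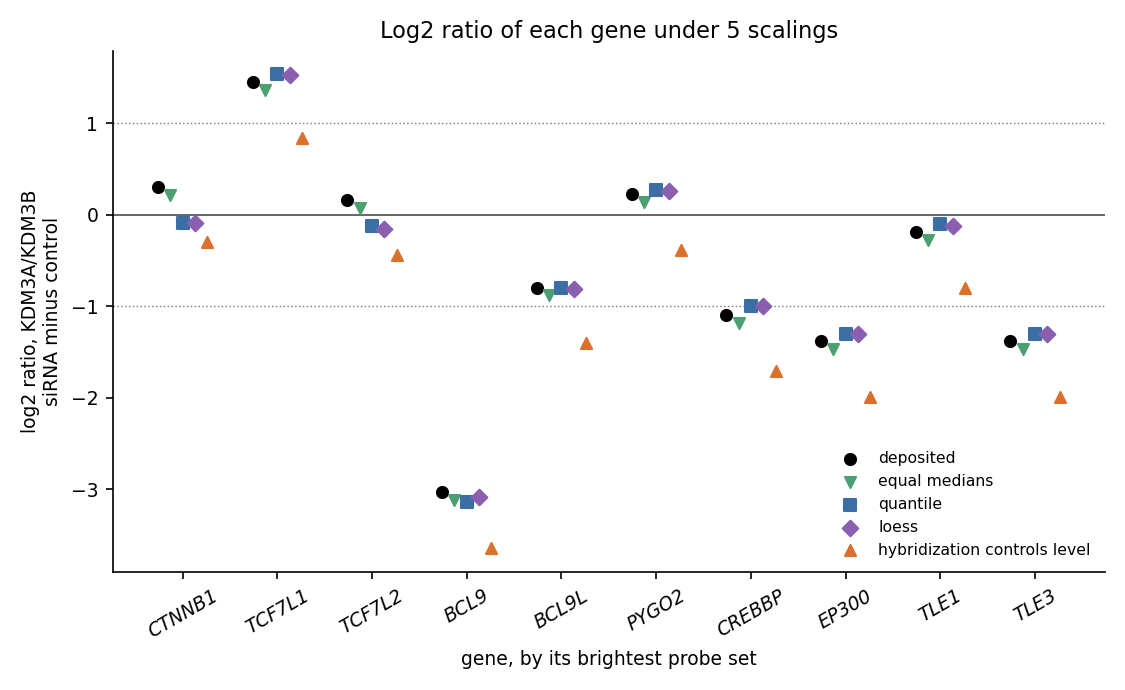
Log2 ratio of each gene by its brightest probe set under the deposited scaling and 4 others, with dotted lines at 2-fold and 1 array per condition. BCL9, BCL9L, CREBBP, EP300, TLE1 and TLE3 lie below 0 and TCF7L1 above 0 under all 5, whereas CTNNB1, TCF7L2 and PYGO2 cross 0.

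Lists of other pathway genes, chosen with earlier results of these data known, held 66 measured genes. Of these, 9 (13.6%) were at least 2-fold higher and 2 (3.03%) lower, beside 8.91% and 8.53% of all measured genes. With the arrays level on the hybridization controls 2 were higher and 22 (33.3%) lower, beside 2.15% and 27.7% of all genes, so the split of these lists depends on the scaling. Counts by list are by brightest probe sets and on the deposited scale unless stated. In the list of other TCF and TLE family members and PYGO1, 3 of 7 were measured, namely TLE2, TLE5 and TLE6. TLE6 read 115 and 515, 4.47-fold higher, and the log2 ratios of its 3 probe sets ran from 0.81 to 2.17. TLE5, a short family member that lacks the WD40 domain, read 580.2 and 268 and was 2.17-fold lower, and TLE2 stood at 0.91. Of 8 inhibitors of the beta-catenin/TCF complex, 1 was at least 2-fold higher and none lower, with a list median of -0.15, and on the hybridization controls none was higher and 3 were lower (CHD8, CTBP1 and NLK). The higher one was CTNNBIP1, which blocks the binding of beta-catenin to TCF factors, at 230.4 and 612 (2.66-fold). The DNA-binding relatives TCF7 and LEF1 were not measured.

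The 14 other coactivators recruited to beta-catenin include subunits of the PAF1, SWI/SNF and Mediator complexes. By their brightest probe sets all 14 differed by less than 2-fold on the deposited scale. Single dimmer probe sets were at least 2-fold lower for KMT2A (-1.29), TBL1XR1 (-1.10), SMARCA4 (-1.09) and MED12 (-1.07), and none of the list was 2-fold higher. On the hybridization controls 8 of the 14 were at least 2-fold lower by their brightest probe sets, led by CTR9 at -1.55 and LEO1 at -1.52. Of the 14, 12 had a log2 ratio below 0, with a median of -0.41, beside 0.04 over all measured genes, and the range ran from -0.94 to 0.75. Of 7 other acetyltransferases of the KAT family, KAT2B was the only one to differ at least 2-fold by its brightest probe set. It read 152 and 422, 2.77-fold higher and opposite in direction to CREBBP and EP300. The 3 KAT6B probe sets ran from -1.07 to 0.48. The KAT list median was -0.21, and on the hybridization controls none was higher and 3 of 7 were lower.

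The 4 measured adherens junction partners of beta-catenin, which hold it at the cell membrane, all had a log2 ratio above 0, with a median of 0.64. CDH1, encoding E-cadherin, read 4669.6 and 10081, 2.16-fold higher, and its probe sets stood at 1.11 and 1.82. On the hybridization controls CDH1 stood at 0.50 and the other 3 between -0.08 and 0.05. In the beta-catenin destruction complex 9 of 11 were measured, of which AXIN2 was 2.01-fold lower and 8 differed by less, with a median of -0.24. The 2 AXIN2 probe sets stood at -1.01 and -0.80, and their mean of -0.90 was short of 2-fold. The 3 BTRC probe sets ran from -1.12 to -0.02. Of 16 measured genes of Wnt secretion, receptors and receptor turnover, 2 were at least 2-fold higher and none lower by the brightest probe set. The higher ones were WLS, the carrier of secreted Wnt proteins (2.21-fold), and LGR4, a receptor for R-spondins (2.10-fold). The 3 WLS probe sets ran from 0.70 to 1.14, with a mean of 0.88 that was short of 2-fold. LRP6 had a dimmer probe set at -2.33 and FZD3 one at -1.40, although their brightest stood at -0.35 and 0.01. The LRP6 and FZD3 means were -0.99 and -0.84, short of 2-fold. The 8 measured Wnt target genes went both ways. Of these, 3 were at least 2-fold higher, led by TNFRSF19 (at least 2.40-fold against the filter) and SOX9 (2.27-fold), AXIN2 was lower, and 4 differed by less, with a median of 0.02. Among these 4, the CCND1 probe sets were split, at -0.44 and -1.36. By the mean of measured probe sets 2 target genes were at least 2-fold higher and 0 lower, with SOX9 at 0.98 and CCND1 at -0.90. With the arrays level on the hybridization controls TLE6 and TNFRSF19 were, by the signals of brightest probe sets, the only genes of these lists still at least 2-fold higher. On that scale 3 genes of the destruction complex, 2 of the receptor list and 3 of the target genes were at least 2-fold lower.

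**Figure D4:**
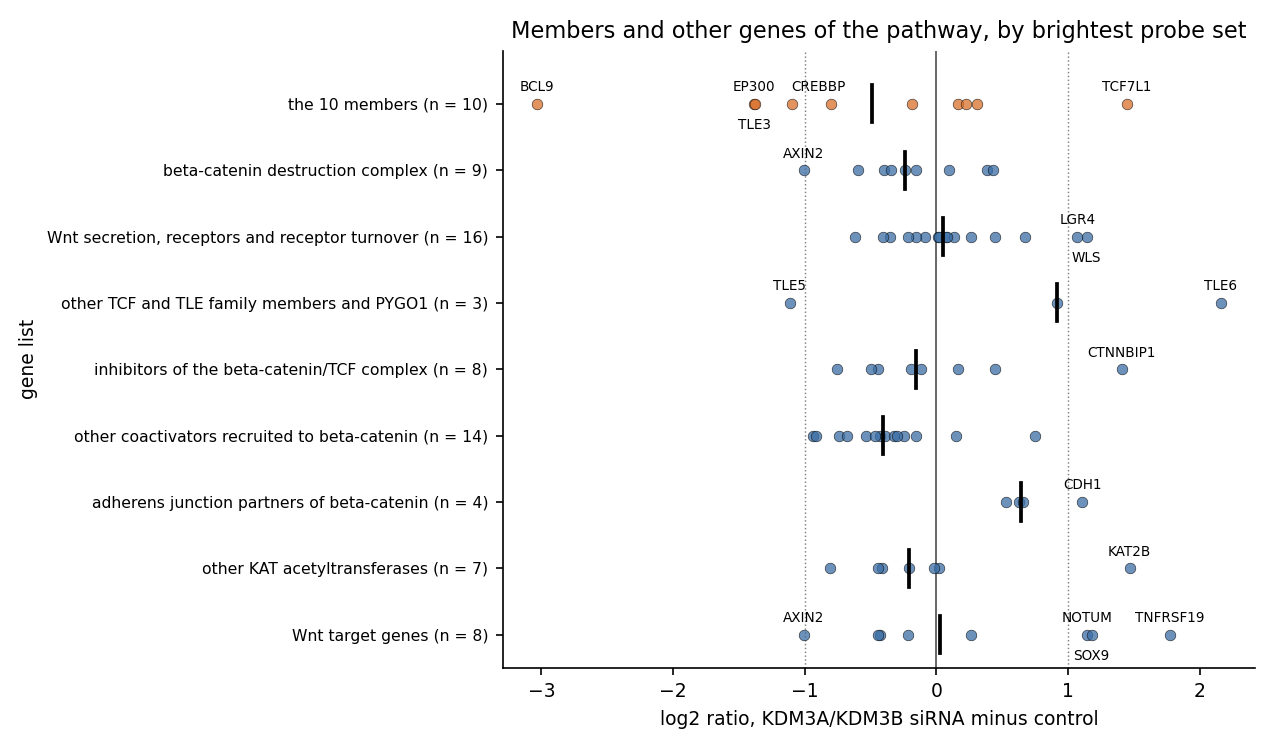
Log2 ratio of each measured gene by its brightest probe set, for the 10 members (top) and 8 other lists of the pathway, with a black bar at each median and dotted lines at 2-fold. AXIN2 belongs to both the destruction complex and the target genes. The members range from -3.03 (BCL9, with its signal on the KDM3A/KDM3B siRNA array under the filter) to 1.45 (TCF7L1). The 14 other coactivators all lie within 2-fold on this deposited scale.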

How the data were processed

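The 2 arrays measured total RNA, labelled with biotin from 0.5 ug per sample, per the labels' protocols. For 54675 probe sets the authors deposited a linear signal intensity. MAS5 produced it, per the submitters' processing notes, with no version or settings given in the sources used here. The trimmed means (2% at each end) were 500.1 on both arrays, and no deposited column was left unused.

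The platform annotation gave 1 gene symbol for 41091 probe sets, several for 1801 and none for 11721. Only the first kind was used, and the gene identifiers of all 10 members matched the RefSeq gene table. Ratios were formed from log2 signals without a pseudocount. The brightest measured probe set, by mean log2 signal, stood for a gene. With 1 array per group no test was run, and 2-fold marks a call. A fold "at least" raises the dimmer signal to the filter. The number of arrays limits precision. The members and lists were chosen with earlier results of these data known. Named genes are all members, KDM3A, KDM3B, and up to 2 genes per direction of each list among those that differed 2-fold; other genes, such as TLE2 and the markers, are named for completeness after their values were seen. Alternatives were 4 scalings, a pseudocount, 3 filters, 2 probe set rules and 2 thresholds. Calculations used Python 3.11.15, numpy 2.4.6, pandas 2.3.3 and statsmodels 0.14.6, and were tested on simulated data.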

Additional observations from a re-analysis of the deposited data

How the results depend on the processing

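Raising the threshold to 3-fold left 1 member probe set and 1 member gene lower, and 0 higher of either. At 1.5-fold 3 probe sets were higher. With the arrays level on the hybridization controls 10 probe sets were lower, 0 probe sets and 0 genes were higher, and the median log2 ratio of the member probe sets was -0.87. Quantile normalization and loess each gave 2 probe sets higher. With no filter 11 probe sets were lower and 2 higher. Without _s_at and _x_at probe sets 0 probe sets and 0 genes were higher, since the only TCF7L1 probe set is of that kind, as are those of EP300, and the median log2 ratio was -0.57 over 14 probe sets. The mean of measured probe sets left 2 genes lower. The other alternatives kept the counts within 1.5 times of those reported and the median between -0.35 and -0.24, and no called gene changed direction under any alternative run. Under the pseudocount 1 of 12 genes, BCL9, moved by more than the probe set SD. Leaving out a replicate was not possible with 1 array per group. No paired analysis was possible because each group holds 1 array.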

Other observations

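Probe sets of 2 non-coding transcripts named after members were outside the rule. EP300-AS1 read 386 on the control array and 568 on the KDM3A/KDM3B siRNA array, a log2 ratio of 0.56, opposite in sign to both EP300 probe sets, and -0.05 with the arrays level on the hybridization controls. TLE1-DT, a divergent transcript of TLE1, lay below the filter on both arrays, at 2.49 and 27.7. Both were chosen after their values were seen.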
